A study of Mus musculus with 4 samples.

Results

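The proteasome genes of C2C12 cells, mouse myoblasts of an established line that can form myotubes in culture, were followed across 4 RNA-seq libraries. The members are all 50 entries whose gene symbol begins with Psm, then a letter from a to g and a digit, of 24850 entries with a gene symbol in the total RNA tables and 24992 in the polyA tables. They comprise 19 genes of the core (8 Psma, 11 Psmb), 21 of the cap (Psmc and Psmd), 5 of the activators (Psme), and 5 others, Psmf1 and Psmg1 to Psmg4. Psmc3ip was matched by its letters and is counted with the cap, but it encodes a factor of meiotic recombination and is not a subunit. The cap thus holds 6 ATPases (Psmc1 to Psmc6), 14 Psmd genes and Psmc3ip. Symbol matching left out subunits with other names, such as Adrm1 and Sem1, which are given with the neighboring pathway.

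The proteasome degrades proteins that carry ubiquitin chains. Its core is a barrel of stacked rings, in which outer rings of alpha subunits (Psma) gate the entry and inner rings of beta subunits (Psmb) hold the proteolytic sites. The cap binds ubiquitin, removes it and unfolds the substrate with a ring of ATPases (Psmc) held by non-ATPase subunits (Psmd), while the activators (Psme) are alternative lids that open the gate without ATP. In muscle this system is best known for the turnover of myofibrillar proteins and for its rise in wasting.

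Total RNA depleted of rRNA was sequenced from proliferating myoblasts (MB, DM -24 h, that is before the move to differentiation medium, DM) and from myotubes (MT, DM 72 h by the labels, while a legend of the study gives an earlier hour for an RNA-seq comparison of MT and MB). PolyA RNA was sequenced from MT at DM 48 h after transfection of an siRNA against the RNA-binding protein hnRNPL (si-hnRNPL) or of a scrambled negative control (si-NC). Each condition has 1 library of unmodified C2C12 cells, so no difference below has been checked in a replicate and none carries a p-value. The authors' values are FPKM, fragment numbers scaled to transcript length and library size, each with a 95% interval. This interval reflects how well fragments were counted and assigned in that library and nothing between cultures. From their widths an effective depth was worked out, which over all entries came to 59960176 fragments for MB and 54442423 for MT. The si-NC library had 21341051 by this measure and the si-hnRNPL library 14592480, so the polyA values are the less precise. The library pairs differ in RNA selection, kit, sequencer and hours in DM, and levels were compared only within a pair.

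The labels were checked against marker genes. All 8 myotube markers were higher in MT than in MB past the threshold used below, and all 4 proliferation markers were lower. Markers of blood, endothelial and fat cells reached at most 1.13 FPKM. In the polyA pair the targeted gene, Hnrnpl, had 95.1 FPKM under si-NC and 85.9 FPKM under si-hnRNPL. This is a log2 change of -0.14 (interval -0.20 to -0.09), which stays within the threshold. The study examined the knockdown by Western blot of the protein, which these RNA values do not measure. In the same pair 3 of 8 myotube markers were higher in si-hnRNPL and 2 of 4 proliferation markers lower, with list medians of 0.47 and -0.46. Their part in the values of the proteasome genes was not tested.

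Promoters were examined for sequence that the members share. RefSeq (build GRCm38.p6) gave 45 promoters of 42 members, each 250 bases before and 50 after the start of transcription. Entries for Psma8, Psmb1, Psmb2, Psmb7, Psmc3, Psmd3, Psmd7 and Psmg2 were not used here. The 4 promoters shown are those of the alpha gene and the Psmd gene with the lowest change from MB to MT (Psma7, Psmd5), of the cap gene Psmd8, which was level, and of the activator Psme1. Capitals mark any of 5 motifs, each searched on both strands, and adjoining or overlapping matches run together. A GC box was spelled GGGCGG, and the CCAAT box by the letters of its name. A TATA box was spelled TATAAA in this search. The core of the antioxidant response element was spelled TGACNNNGC, and the core of the interferon-stimulated response element was spelled GAAANNGAAA.

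Psma7, chr2:180042415-180042714, minus strand: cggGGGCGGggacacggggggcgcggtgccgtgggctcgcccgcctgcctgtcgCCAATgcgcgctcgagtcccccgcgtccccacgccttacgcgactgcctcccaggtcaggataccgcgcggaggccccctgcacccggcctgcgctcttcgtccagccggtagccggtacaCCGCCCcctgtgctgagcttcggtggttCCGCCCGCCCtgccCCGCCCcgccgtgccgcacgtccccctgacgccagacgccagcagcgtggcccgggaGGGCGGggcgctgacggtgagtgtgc

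Psmd5, chr2:34870913-34871212, minus strand: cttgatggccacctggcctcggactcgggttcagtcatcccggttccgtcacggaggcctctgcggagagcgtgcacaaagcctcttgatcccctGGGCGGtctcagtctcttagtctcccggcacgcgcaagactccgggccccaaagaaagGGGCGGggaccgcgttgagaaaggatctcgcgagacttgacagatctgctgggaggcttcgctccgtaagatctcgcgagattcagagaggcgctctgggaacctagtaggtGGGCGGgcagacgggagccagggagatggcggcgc

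Psmd8, chr7:29180624-29180923, minus strand: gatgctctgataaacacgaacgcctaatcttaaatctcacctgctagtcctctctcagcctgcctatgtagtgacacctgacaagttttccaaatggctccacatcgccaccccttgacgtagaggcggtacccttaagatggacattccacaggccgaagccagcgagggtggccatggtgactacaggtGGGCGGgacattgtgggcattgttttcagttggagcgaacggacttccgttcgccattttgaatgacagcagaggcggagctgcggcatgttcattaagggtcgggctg

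Psme1, chr14:55578244-55578543, plus strand: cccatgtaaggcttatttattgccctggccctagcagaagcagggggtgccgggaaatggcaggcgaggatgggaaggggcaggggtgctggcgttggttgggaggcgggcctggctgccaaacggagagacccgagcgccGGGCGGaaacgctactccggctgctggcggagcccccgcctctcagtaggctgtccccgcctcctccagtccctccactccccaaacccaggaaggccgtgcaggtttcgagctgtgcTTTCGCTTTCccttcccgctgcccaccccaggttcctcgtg

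The promoters of Psma7, Psmd5, Psmd8 and Psme1 all hold a GC box, with 6 matches in Psma7, 3 in Psmd5 and 1 each in Psmd8 and Psme1. Over all members 53.3% of promoters held this motif, against 35.7% of all promoters and 46.2% of those of protein-coding genes. The members' promoters were also richer in G and C, with a median of 57.3% against 52.7% and 56.3%. The CCAAT box was in 33.3% of the members' promoters, against 37.4% of all and 38.2% of protein-coding ones, and the TATA box in 8.89%, against 13.6% and 12.6%.

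The antioxidant response element core, the kind of site bound by Nfe2l1 and Nfe2l2, was in 13.3% of the members' promoters, against 12.4% of all promoters and 12.98% of protein-coding ones. Its 6 holders were Psmb5, Psmb6, Psmc6, Psmd9, Psmd12 and Psme4, with the match 47 bases before the start in Psmb5 and 9 bases before it in Psmb6. In Psmd9 the match overlaps a GC box. The interferon-stimulated response element core was in 11.1%, against 3.44% and 3.35%. It lay in Psmb3, Psmd4, Psmd9, Psmg4 and Psme1, where it begins at base 10 of the transcript. The promoters of Psmb8, Psmb9, Psmb10 and Psme2, also induced by interferon, were searched and held no match to it. These shares describe letters in a window of 300 bases and carry no test.

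**Figure D1:**
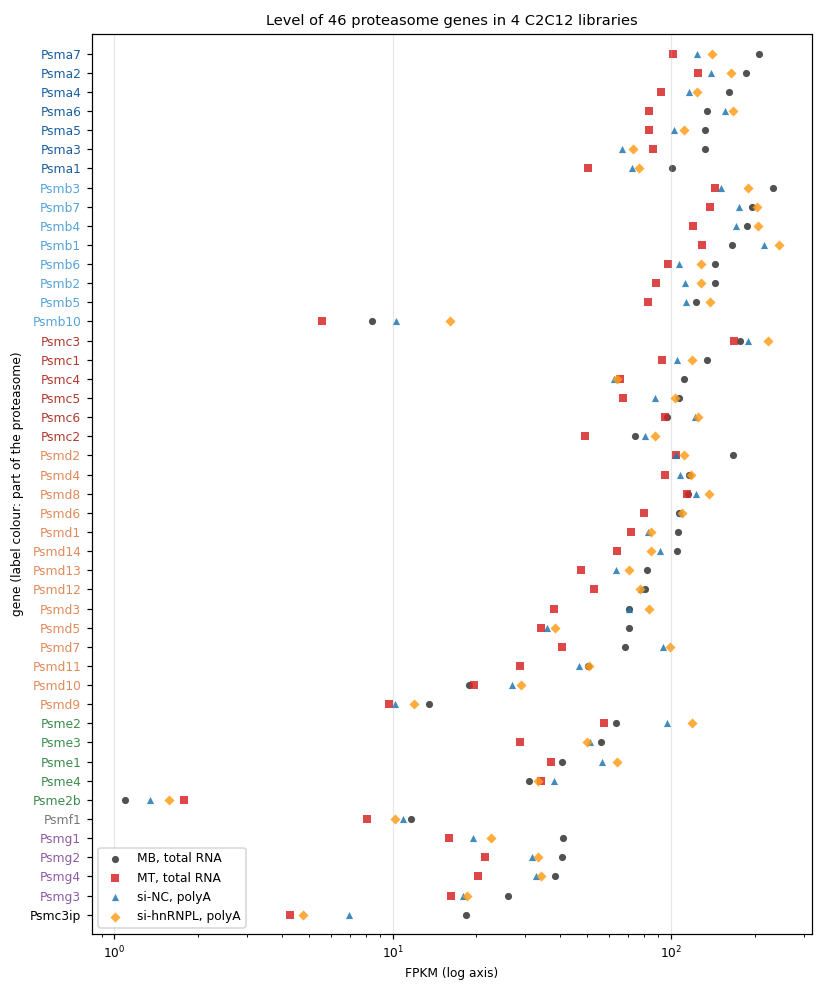
FPKM (log axis) of the 46 proteasome genes at 1 FPKM or more in all 4 libraries, 1 row per gene, with label colours for the alpha ring, beta ring, cap ATPases, cap non-ATPases, activators, Psmf1, assembly chaperones and Psmc3ip. Circles are MB, squares MT, triangles si-NC and diamonds si-hnRNPL, and most squares lie left of the circles while the diamonds lie slightly right of the triangles.

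Proteasome genes were among the abundant transcripts of every library. Of the 50 members, the 1000 highest named entries of MB held 27, those of MT 24 and those of either polyA library 26. In all 4 libraries 46 members reached 1 FPKM. The 14 constitutive core genes (Psma1 to Psma7 and Psmb1 to Psmb7), whose products are present in equal numbers in the barrel, ranged from 100.8 FPKM (Psma1) to 231.6 FPKM (Psmb3) in MB and from 50.5 FPKM (Psma1) to 143.5 FPKM (Psmb3) in MT. Under si-NC they ranged from 66.5 FPKM (Psma3) to 214.9 FPKM (Psmb1), and under si-hnRNPL from 73.2 FPKM (Psma3) to 244.4 FPKM (Psmb1). The highest of the 14 was thus 2.30 times the lowest in MB and 2.84 times in MT, while in polyA RNA it was 3.23 times the lowest under si-NC and 3.34 times under si-hnRNPL.

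The order of the members was close within each pair. Across the 46 genes the log2 FPKM of MB and MT had a Pearson correlation of 0.957, and those of si-NC and si-hnRNPL one of 0.994. These points share the library, its depth and the gene models, and the values are a description. The summed FPKM of the 14 constitutive core genes was 120.0% of that of the 20 cap genes without Psmc3ip in MB, 106% in MT, 108% in si-NC and 115% in si-hnRNPL. These 20 genes include the assembly chaperones Psmd5, Psmd9 and Psmd10 and leave out the cap subunits Adrm1 and Sem1.

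The core genes that are restricted to certain tissues or induced by interferon were nearly silent. Psma8, a germ-cell alpha subunit, was listed at 0 in all 4 libraries. Psmb11, the beta subunit of thymic epithelium, was at 0.021 FPKM in MB, 0.027 in MT, 0.007 in si-NC and 0.011 in si-hnRNPL. The values of Psmb11 correspond to fewer than 10 fragments in each library.

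Interferon replaces the catalytic subunits Psmb5, Psmb6 and Psmb7 by Psmb8, Psmb9 and Psmb10, which gives the immunoproteasome. Psmb8 was at 0.159 FPKM in MB, 0.260 in MT, 0.263 in si-NC and 0.315 in si-hnRNPL, which correspond to 14, 24, 9 and 7 fragments. Psmb9 was at 0.131 FPKM in MB, 0.053 in MT, was listed at 0 in si-NC and was at 0.080 in si-hnRNPL, which correspond to at most 7 fragments. At such numbers no difference of these genes could be detected.

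Psmb10 was the exception among the inducible subunits, with 8.46 FPKM in MB, 5.55 in MT, 10.3 in si-NC and 16.0 in si-hnRNPL. Set against Psmb7, which it replaces, it stood at 4.33% in MB, 4.04% in MT, 5.90% in si-NC and 7.91% in si-hnRNPL. Psmb8 stood at 0.129 to 0.315% of Psmb5, and Psmb9 at 0 to 0.0909% of Psmb6.

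The first comparison asks how the proteasome genes differ between MB and MT. Of the 50 members, 26 fell by a log2 change of 0.58 or more, the 1.5-fold threshold of the study's methods, 0 rose and 24 stayed within it. Without Psmc3ip, Psmf1 and the assembly chaperones, 21 of 44 core, cap and activator genes fell. Over all 24850 named entries, many of them silent, 13.7% were lower and 7.81% higher by the same rule. Among the 5535 named entries at 10 FPKM or more in both libraries, which are closer to the members in level, 31.1% were lower and 7.48% higher. Of the 50 members 41 passed that filter, and 25 of these were lower. Changes are log2 ratios of FPKM + 1, and the interval after each combines the authors' 95% intervals of both libraries. In bulk RNA, fewer cells that express a gene and less RNA of it per cell cannot be told apart.

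**Figure D2:**
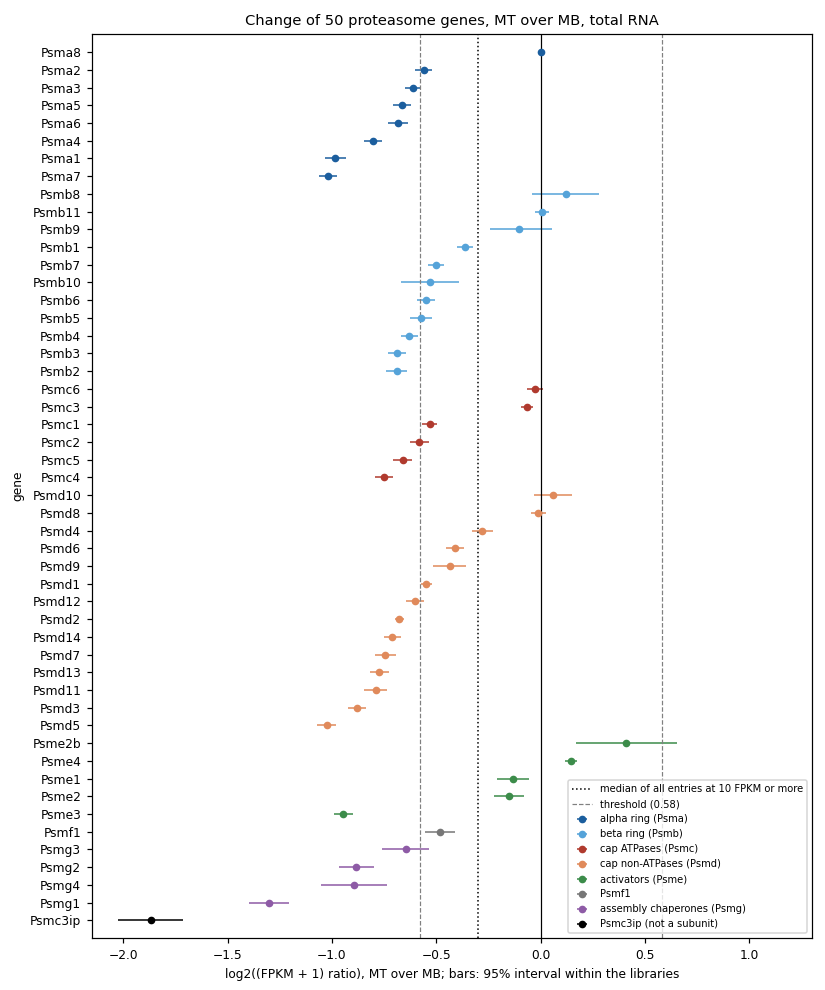
Log2((FPKM + 1) ratio) of MT over MB for all 50 members, 1 row per gene, coloured by the part of the proteasome, with bars for the 95% interval within the libraries, dashed lines at the threshold of 0.58 and a dotted line at -0.30, the median of named entries at 10 FPKM or more. The points run from -1.87 (Psmc3ip) to 0.41 (Psme2b), and 26 lie at or left of the lower threshold.

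The median log2 change was -0.57 over the 19 core genes, -0.60 over the 21 cap genes, -0.13 over the 5 activators and -0.88 over the 5 other genes, beside -0.23 over named entries at 1 FPKM or more in both libraries and -0.30 over those at 10 FPKM or more. Since the median of all these genes lay below 0, the members were also read relative to that shift of -0.23. Centred in this way, 9 members were lower past the threshold (Psma1, Psma7, Psmc3ip, Psmd3, Psmd5, Psme3, Psmg1, Psmg2 and Psmg4) and 1 was higher (Psme2b). Among members at 10 FPKM or more, 8 of 41 (19.5%) were then lower, near the 18.4% of all entries at that level. The medians of core, cap and other genes then stayed below 0 (-0.35, -0.37 and -0.66), while that of the activators turned positive (0.094).

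A scaling to an equal sum of named genes other than small RNA genes, a further alternative, left 6 members lower and 1 higher. Among members at 10 FPKM or more these were 5 of 41 (12.2%), near the 13.7% of all entries at that level. Core, cap and other genes kept medians below 0 (-0.21, -0.24 and -0.53), and the activators again turned positive (0.23). This scaling multiplied every MT value by 1.29, a log2 shift of 0.37, so these medians are not relative to the median of all genes. How many members passed the threshold was therefore set largely by the scaling, while the sign of the core, cap and chaperone medians was the same under the 3 scalings. Below, a gene that fell is one lower past the threshold as deposited, unless its change is given relative to the shift of all genes.

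**Figure D3:**
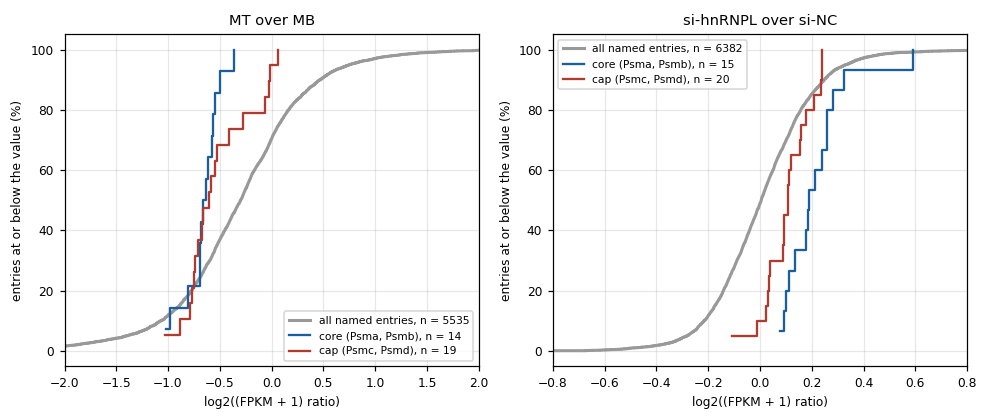
Share of entries at or below each log2((FPKM + 1) ratio), for MT over MB on the left and si-hnRNPL over si-NC on the right, over entries at 10 FPKM or more in both libraries of the pair. On the left the core (14 genes, blue) and cap (19 genes, red) curves lie left of that of 5535 named entries (grey) over most of the range. On the right Psmb10 also enters the core and Psmd9 the cap, and both curves lie right of that of 6382 entries over most of the range.

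In the alpha ring 6 of 8 genes fell as deposited, and relative to the shift of all genes only Psma7 (-0.79) and Psma1 (-0.76) passed the threshold. Psma7 dropped from 207.8 FPKM in MB to 102.0 in MT, a log2 change of -1.02 (interval -1.06 to -0.98), the largest in the ring. Psma1 followed, from 100.8 to 50.5 FPKM (-0.98). Next came Psma4 (161.2 to 92.0 FPKM, -0.80), Psma6 (134.5 to 83.4 FPKM, -0.68), Psma5 (132.5 to 83.3 FPKM, -0.66) and Psma3 (132.3 to 86.4 FPKM, -0.61). The remaining constitutive alpha gene, Psma2, was at 185.5 FPKM in MB and 125.4 in MT, and its change of -0.56 missed the threshold narrowly.

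The beta ring lay in a narrower band. Its 7 constitutive genes lay between -0.69 and -0.36, with a median of -0.57, while the 7 constitutive alpha genes lay between -1.02 and -0.56, with a median of -0.68. Of the structural beta genes 3 passed the threshold, Psmb2 (143.4 to 88.6 FPKM, -0.69), Psmb3 (231.6 to 143.5 FPKM, -0.69) and Psmb4 (186.7 to 120.4 FPKM, -0.63). Psmb1, also structural, had the smallest difference, with 166.0 FPKM in MB and 128.8 in MT (-0.36).

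The catalytic beta genes stayed within the threshold, close to it. Psmb5, which carries the chymotrypsin-like site, was at 123.1 FPKM in MB and 82.3 in MT (-0.57, interval -0.63 to -0.52). Psmb6, with the caspase-like site, was at 143.8 and 97.8 FPKM (-0.55), and Psmb7, with the trypsin-like site, at 195.2 and 137.5 FPKM (-0.50). The inducible Psmb10 had a change of -0.53 in the same range, from 8.46 to 5.55 FPKM, with the wider interval of -0.67 to -0.39. The threshold thus separated beta genes whose intervals overlap.

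The 6 ATPases of the cap form 1 ring, but their transcripts did not share 1 change. Psmc4 (111.1 to 65.6 FPKM, -0.75), Psmc5 (106.8 to 67.2 FPKM, -0.66) and Psmc2 (74.1 to 49.2 FPKM, -0.58) fell. Psmc1 was at 135.0 FPKM in MB and 93.1 in MT (-0.53). Psmc3 and Psmc6 were level: Psmc3 was at 176.7 FPKM in MB and 168.9 in MT (-0.06, interval -0.09 to -0.04), and Psmc6 at 96.9 and 95.02 FPKM (-0.03, interval -0.07 to 0.01). Relative to the shift of all genes, Psmc3 and Psmc6 had changes of 0.16 and 0.20, so that their sign depends on the scaling. On that scale Psmc4, the lowest ATPase, had a change of -0.52, within the threshold.

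Of the 14 Psmd genes 8 fell, and the spread among them was wide. The lid subunits Psmd3 (70.5 to 37.9 FPKM, -0.88), Psmd11 (50.4 to 28.7 FPKM, -0.79), Psmd13 (81.8 to 47.5 FPKM, -0.77), Psmd7 (68.6 to 40.5 FPKM, -0.74) and Psmd12 (80.9 to 53.0 FPKM, -0.60) were among them. So were the scaffold Psmd2 (166.5 to 103.8 FPKM, -0.68) and Psmd14 (105.0 to 63.8 FPKM, -0.71), the deubiquitinase of the lid. Psmd1, the other large scaffold, was at 105.7 FPKM in MB and 72.0 in MT (-0.55), and the lid subunit Psmd6 at 106.7 and 80.0 FPKM (-0.41). Relative to the shift of all genes, only Psmd3 (-0.65) and Psmd5 (-0.80) of the Psmd genes passed the threshold.

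Other Psmd genes had smaller values. The lid subunit Psmd8 was at 114.9 FPKM in MB and 114.0 in MT, a change of -0.01 with an interval of -0.05 to 0.02. The ubiquitin receptor Psmd4 was at 115.8 and 95.2 FPKM (-0.28), close to the median of all genes at 10 FPKM or more. Relative to the shift of all genes Psmd8 had a positive change (0.22).

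Psmd5, Psmd9 and Psmd10 encode chaperones that hold the ATPases during assembly and leave the finished cap. Their values differed. Psmd5 had the lowest change of the Psmd genes, from 70.5 to 34.1 FPKM (-1.02, interval -1.07 to -0.98). Psmd9 was at 13.5 FPKM in MB and 9.72 in MT (-0.44, interval -0.51 to -0.36), and Psmd10 at 18.8 and 19.7 FPKM (0.06, interval -0.03 to 0.15). The intervals of these 3 genes do not overlap.

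The 4 chaperones of core assembly all fell as deposited, and relative to the shift of all genes Psmg3 (-0.42) stayed within the threshold. Psmg1 and Psmg2, which form a pair that gathers alpha subunits into a ring, fell from 40.9 to 16.0 FPKM (-1.30, interval -1.40 to -1.21) and from 40.6 to 21.5 FPKM (-0.88). Psmg3 and Psmg4, the second pair, fell from 25.9 to 16.2 FPKM (-0.65) and from 38.5 to 20.3 FPKM (-0.89). Psmg1 had the lowest change of all members that act on the proteasome. Pomp, the factor that guides the beta ring, was at 131.0 FPKM in MB and 100.0 in MT (-0.39), which did not pass the threshold.

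Psmc3ip, the recombination factor, had the lowest change of all 50 members, from 18.3 to 4.29 FPKM (-1.87, interval -2.03 to -1.71). Without it and Psme2b, 25 of 48 members were lower and the median of the cap was -0.59. Psmf1, a protein first described as an inhibitor of the core, was at 11.7 FPKM in MB and 8.06 in MT (-0.48).

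The activators did not move as a group. Psme1 and Psme2 form a joint ring that is induced by interferon, and neither passed the threshold: Psme1 was at 40.7 FPKM in MB and 37.0 in MT (-0.13, interval -0.21 to -0.06), and Psme2 at 63.6 and 57.2 FPKM (-0.15, interval -0.22 to -0.08). Psme1 stood at 63.9% of Psme2 in MB and 64.6% in MT, and at 58.1% under si-NC and 53.8% under si-hnRNPL. Relative to the shift of all genes, both had small positive changes (0.094 and 0.076).

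Psme3, the nuclear activator, fell. It was at 56.2 FPKM in MB and 28.7 in MT, a change of -0.94 (interval -0.99 to -0.90), and it lies on chromosome 11 at 101177565 to 101184844 (mm9). Psme4, a large nuclear cap, was at 30.8 FPKM in MB and 34.1 in MT (0.15, interval 0.12 to 0.18). Psme2b is a processed copy of Psme2 that GENCODE vM1 names Psme2b-ps, as a pseudogene, but types as protein-coding. It was at 1.09 and 1.78 FPKM (0.41, interval 0.17 to 0.65), and 47.1% of its 36-base windows also occur elsewhere in the genome.

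Sequence copies bear on several members, since many subunits have processed pseudogenes. A window of 36 bases, the shortest read kept, was called repeated where the same letters occur elsewhere in mm9 on either strand. Of the 50 members 31 had a repeated window and 13 had 10% or more, led by Psmb5 (69.4%), Psma5 (54.0%), Psme2b (47.1%) and Psmc1 (35.1%). The median change from MB to MT was -0.58 over these 13 and -0.64 over the other 32 members at 1 FPKM or more, Psmc3ip aside. Reads of such windows can be credited to another copy. Among the constitutive core genes, Psmb5 and Psma5 had the largest share of such windows. Whether reads were credited wrongly was not tested.

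Genes that feed the proteasome were taken from a list of shuttles, deubiquitinases, ubiquitin genes and regulators. Of 35 measured, 13 fell and 2 rose, with a median of -0.39, beside 31.1% lower, 7.48% higher and a median of -0.30 over named entries at 10 FPKM or more. The cap deubiquitinases Uchl5 (23.1 to 9.37 FPKM, -1.22) and Usp14 (34.8 to 20.8 FPKM, -0.71), the shuttle Ubqln4 (32.4 to 13.9 FPKM, -1.16) and the ubiquitin receptor Adrm1 (69.7 to 44.3 FPKM, -0.64) were lower. The cap subunit Sem1, listed as Shfm1 in the total RNA tables, was at 178.7 and 142.3 FPKM (-0.33).

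The list's 2 genes past the threshold in the other direction were Nfe2l1, which encodes the transcription factor known to drive proteasome genes when the proteasome is inhibited (43.4 to 85.2 FPKM, 0.96), and the proteasome-binding zinc-finger gene Zfand5 (12.3 to 20.5 FPKM, 0.70). Ddi2, the protease that activates the Nfe2l1 product, was at 16.9 and 13.7 FPKM (-0.28), and Ngly1, its glycanase, at 9.43 and 13.1 FPKM (0.44).

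Of 13 genes of antigen processing, which work with the immunoproteasome, 0 fell and 2 rose, beside the same 31.1% and 7.48%. These were the peptide transporter Tap2 (1.88 to 5.94 FPKM, 1.27) and B2m, the light chain of MHC class I (140.3 to 228.8 FPKM, 0.70). Tap1, the partner of Tap2, was at 0.688 FPKM in MB and 0.669 in MT. The median of the list was -0.02.

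The second comparison asks how the members respond to si-hnRNPL in MT. Differences were small: of the 50 members 0 fell, 1 rose (Psmb10) and 49 stayed within the threshold. Over all 24992 named entries 0.416% were lower and 0.688% higher, and among the 6382 at 10 FPKM or more in both libraries 0.423% were lower and 0.909% higher, so that 1 of 50 members is near the share of all genes.

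**Figure D4:**
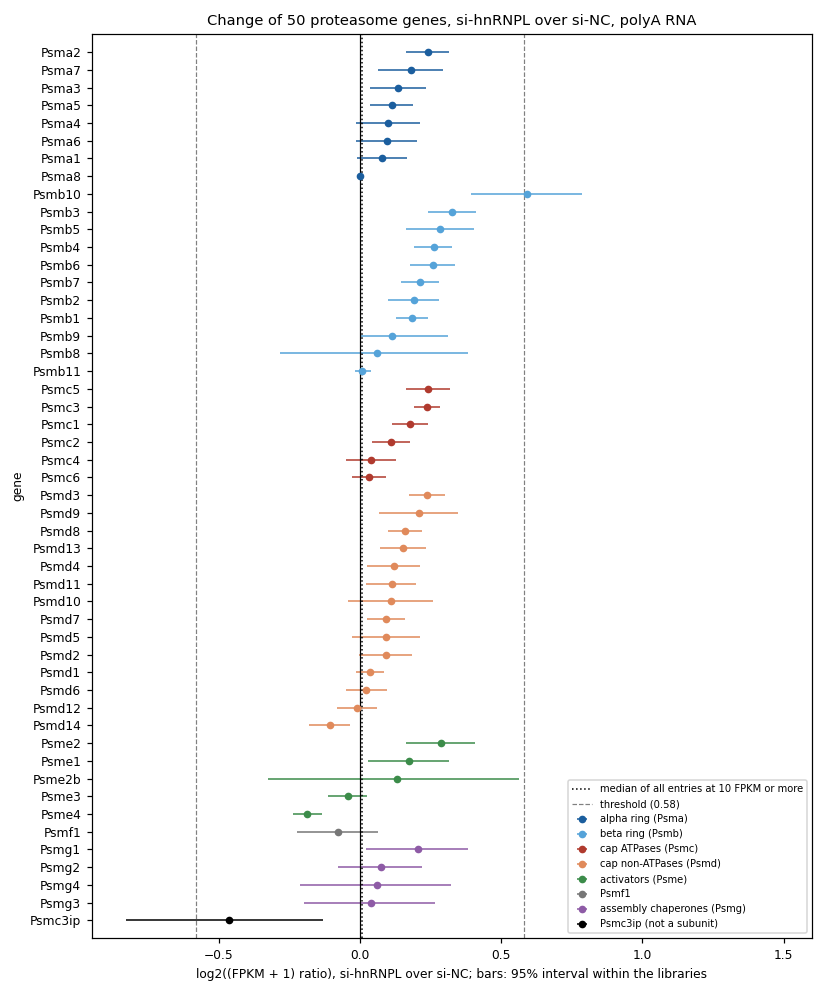
Log2((FPKM + 1) ratio) of si-hnRNPL over si-NC for all 50 members, 1 row per gene, coloured by the part of the proteasome, with bars for the 95% interval within the libraries, dashed lines at the threshold of 0.58 and a dotted line at the median of named entries at 10 FPKM or more. All points lie between -0.47 (Psmc3ip) and 0.59 (Psmb10), and most lie right of 0.

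Psmb10, on chromosome 8 at 108459628 to 108462292 (mm9), had 10.3 FPKM under si-NC and 16.0 under si-hnRNPL. The change was 0.59 with an interval of 0.39 to 0.79, which includes the threshold. It rests on intervals that correspond to 368 and 370 fragments in libraries of unequal depth. Under the equal-sum scaling and after correction for exon length, no member passed the threshold. The antigen processing genes, many of which are induced by interferon as Psmb10 is, had 0 of 13 past the threshold in either direction. Over all named entries 0.416% were lower and 0.688% higher, so a list of 13 would seldom hold any. Their changes ran from -0.12 (Canx) to 0.27 (Tapbp) with a median of 0.03, and B2m was at 470.7 and 500.6 FPKM (0.09). A part of interferon in the value of Psmb10 was not tested.

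Below the threshold the members leaned upwards. Of the 46 at 1 FPKM or more in all libraries, 40 had a change above 0 (87.0%), against 47.8% of named entries at 1 FPKM or more and 51.0% of those at 10 FPKM or more. The median was 0.18 over the core, 0.11 over the cap, 0.13 over the activators and 0.059 over the other genes, beside -0.01 over entries at 1 FPKM or more. The interval lay above 0 for 26 of the 50 members and below it for 3, Psmd14, Psme4 and Psmc3ip. Among the 6382 named entries at 10 FPKM or more in both libraries, it lay above 0 for 1702 and below 0 for 1762. Such an interval covers error within the libraries only, so clearing 0 was common among expressed genes.

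The beta ring had the highest values. Its 7 constitutive genes lay between 0.18 and 0.33 with a median of 0.26, and all 7 intervals lay above 0. Psmb3 was highest, at 150.7 FPKM under si-NC and 189.2 under si-hnRNPL (0.33, interval 0.24 to 0.41). Of the catalytic genes, Psmb5 was at 113.1 and 137.8 FPKM (0.28), Psmb6 at 106.7 and 127.7 FPKM (0.26) and Psmb7 at 174.8 and 202.8 FPKM (0.21).

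The alpha genes lay lower, between 0.08 and 0.24. Psma2 was highest, at 138.8 FPKM under si-NC and 164.1 under si-hnRNPL (0.24), and Psma1 lowest, at 72.6 and 76.6 FPKM (0.08, interval -0.01 to 0.17). The median of the 7 constitutive alpha genes was 0.11.

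The cap ranged around smaller values. Among ATPases Psmc5 was highest (87.5 and 103.5 FPKM, 0.24) and Psmc6 lowest (122.2 and 124.9 FPKM, 0.03, interval -0.03 to 0.09). Among Psmd genes Psmd3 was highest (70.6 and 83.4 FPKM, 0.24), and the deubiquitinase Psmd14 lowest (91.1 and 84.5 FPKM, -0.11, interval -0.18 to -0.04). Psmc3ip was at 6.97 and 4.77 FPKM (-0.47, interval -0.83 to -0.13), lower in si-hnRNPL as in MT but within the threshold.

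Among activators, the interferon-induced pair stood at 56.4 and 63.7 FPKM for Psme1 (0.17) and at 97.02 and 118.4 FPKM for Psme2 (0.29, interval 0.16 to 0.41). Psme3 was at 51.3 and 49.7 FPKM (-0.04). Psme4 was at 38.1 and 33.3 FPKM (-0.19, interval -0.24 to -0.14), and Psme2b at 1.35 and 1.57 FPKM (0.13) with an interval of -0.33 to 0.56.

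The remaining genes were close to 0. Psmf1 was at 10.8 FPKM under si-NC and 10.2 under si-hnRNPL (-0.08). The chaperone Psmg1 was at 19.5 and 22.6 FPKM (0.20, interval 0.02 to 0.38), while Psmg2 (0.07), Psmg3 (0.04) and Psmg4 (0.06) had intervals that include 0. Of 34 genes of recognition and delivery none passed the threshold in either direction (0 of 34), beside 0.416% lower and 0.688% higher over all named entries. The ubiquitin gene Ubb was highest (410.0 to 522.2 FPKM, 0.35).

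Exon length moved with these small changes. Over 9860 protein-coding genes at 1 FPKM or more, the change in si-hnRNPL had a Spearman correlation of -0.41 with exon length and of 0.42 with exon GC content, so that short and GC-rich transcripts tended to be higher in si-hnRNPL. These genes share both libraries, and the values are a description. The 46 members had a median exon length of 2175 bases, against 3802 bases over those genes, and a correlation of -0.28 with length among themselves. In GC content the members were close to those genes, with a median of 49.5% against 49.8%. Psme4, with the longest exons of the 46 (8382 bases), had the second lowest change.

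**Figure D5:**
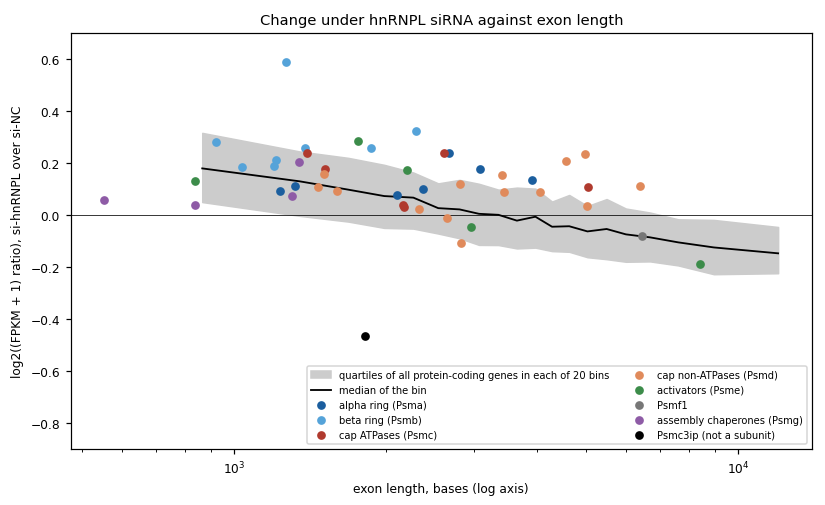
Log2((FPKM + 1) ratio) of si-hnRNPL over si-NC against exon length in bases (log axis) for the 46 members at 1 FPKM or more (points, coloured by the part of the proteasome), over the median (line) and quartiles (grey band) of protein-coding genes in 20 bins of length. The line falls from 0.18 in the shortest bin to below 0 in long genes, and most members lie on or above it.

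Over the 46 members at 1 FPKM or more the core median was 0.19 as deposited and 0.089 after the median of genes of the same exon length was subtracted, and that of the cap was 0.11 and 0.076, while the medians of the activators and the other genes turned negative (-0.06 and -0.07). Over all 50 members the core median was 0.18 as deposited. For these the equal-sum scaling gave 0.084 for the core, 0.0095 for the cap, 0.070 for the activators and -0.04 for the other genes. It applied a log2 shift of -0.10 to every si-hnRNPL value, so these medians are not relative to the median of all genes. The direction of the other genes, and under length correction that of the activators, therefore depends on the processing. For the comparison of MT with MB the length correction left 19 of 46 members lower, 1 higher and core and cap medians of -0.51 and -0.63. The correction adds back the median of all genes, -0.24 in this comparison, so these values still hold that shift. The share of all genes past the threshold after it is not given here. As deposited, 3115 of 10791 named entries at 1 FPKM or more in both libraries were lower.

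The changes of both comparisons, which share no library, were set side by side. Over the 46 members at 1 FPKM or more their Pearson correlation was 0.26, and it was -0.03 over 45 without Psmc3ip, so that it rested on that gene. Of the 6 members with the lowest change in MT, Psmc3ip had a change of -0.47 under si-hnRNPL, Psmg1 of 0.20, Psmd5 of 0.09, Psma7 of 0.18, Psma1 of 0.08 and Psme3 of -0.04.

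Some members lie close together in the genome (mm9). Psme1 and Psme2 are 5912 bases apart on chromosome 14, Psmb5 and Psmb11 7314 bases apart on the same chromosome, and Psmb9 and Psmb8 10864 bases apart on chromosome 17, in the region of the MHC. Psme1 and Psme2 had changes of the same sign in each comparison, within the threshold. Psmb5 was abundant in each library while its neighbour Psmb11 was near 0.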

How the data were processed

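The FPKM values are Cufflinks estimates that the authors made from TopHat alignments to mm9, after quality trimming with a minimum read length of 36 bp. Replicates were not pooled, since each of the 4 libraries is a condition of its own. The deposited values are FPKM with the bounds of a 95% interval, and every member had the status OK. The width of an interval gives an effective number of fragments, (2 x FPKM / (upper bound - FPKM)) squared, which includes uncertain assignment and is no read count. Depth is therefore given only as this number, and no count test was run.

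Changes were computed as log2((FPKM + 1) ratio). An entry was called lower or higher at an absolute value of 0.58 or more. The interval of a change adds the half-widths of both libraries, on the log scale, in quadrature. No test was run, with 1 library in each group. The members and gene lists were chosen with earlier results of these data known. Named with values were all members past the threshold or below 1 FPKM, the inducible and catalytic beta genes, the activators, the other genes, and the highest and lowest of each ring. Further members were added after their values were seen, namely Psmc1, Psmc3, Psmd1, Psmd4, Psmd6, Psmd8 and Psmd9. The genes named from the lists were also picked after their values were seen, and the counts cover each list in full.

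Exon length, GC content and repeated 36-base windows came from GENCODE vM1 and its NCBIM37 genome (mm9). A length correction subtracted the median change in each of 20 bins of exon length and added back the median of all genes. A further alternative, chosen after seeing the data, treated exon length and GC content in turn over 3 rounds. Other alternatives were pseudocounts of 0.1 and 0.01, a filter at 1 FPKM, centring on the median, an equal sum of named genes other than small RNA genes, summing entries with the same symbol, and a 2-fold threshold. Python 3.11.15, numpy 2.4.6, pandas 2.3.3, scipy 1.17.1, numba 0.67.0 and matplotlib 3.10.9 were used, and the calculations were tested on simulated data. Amino acid sequences were not used here.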

Additional observations from a re-analysis of the deposited data

How the results depend on the processing

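For MT over MB the number of lower members was 26 as reported, 9 after centring, 6 with an equal sum and 4 at a 2-fold threshold. The number of higher members was 0 as reported and 1 with a pseudocount of 0.1, 2 with 0.01, 1 after centring, 1 with an equal sum, 1 after correction for exon length and 1 after correction for exon length and GC content. The core median was -0.35 after centring and -0.21 with an equal sum, and the cap median -0.37 and -0.24. Corrections for exon length also leave out members under 1 FPKM. The medians of the core, the cap and the other genes stayed below 0 under all alternatives run, and that of the activators turned positive after centring (0.094) and with an equal sum (0.23).

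For si-hnRNPL over si-NC the number of higher members was 1 as reported, 2 with a pseudocount of 0.1 or 0.01, and 0 with an equal sum, after correction for exon length, after correction for exon length and GC content, and at a 2-fold threshold. The core median was 0.084 with an equal sum, 0.089 after correction for exon length and 0.091 after that for exon length and GC content, and the cap median was 0.0095 with an equal sum. No member was lower under any alternative run (0 in each). Why the scalings differ was not tested.

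No paired analysis was possible because each group has 1 library, and for the same reason leaving out a replicate was not possible. Differences therefore cannot be told apart from differences between cultures or library preparations. Depth limits Psma8, Psmb8, Psmb9 and Psmb11, whose intervals correspond to at most 24 fragments in any library.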
